A study of Arabidopsis thaliana with 251 samples.

Results

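Chromatin immunoprecipitation followed by sequencing (ChIP–seq) of H3K36me2, dimethylated lysine 36 of histone H3, was compared between ELF7-ZF plants and *fwa* plants over the whole nuclear genome. The comparison rests on 4 of the 251 samples of the series: for each line, 1 peak list in each of the 2 data sets that the labels call SET14 and SET20, here replicate 1 and replicate 2. Peaks of the 4 lists that touched or overlapped were joined into 24859 regions with a median width of 1011 bp. Each region was read in ELF7-ZF against *fwa* of the same data set. A region was new when it held an ELF7-ZF peak and no *fwa* peak, and lost in the reverse case. It was widened or narrowed when both lines had a peak and the covered bases differed by at least 1.5 times and 200 bp. Only calls made in both replicates were kept, which left 387 new, 75 lost, 115 widened and 37 narrowed regions. Another 11450 regions were kept in both replicates, that is, present in both lines with no such difference in width.

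ELF7 is the *Arabidopsis* homologue of PAF1, a subunit of the PAF1 complex, which travels with RNA polymerase II (Pol II) and helps it to elongate through chromatin. H3K36 methylation is deposited in transcribed gene bodies. In *Arabidopsis*, H3K36me3 lies towards the 5′ part of genes and H3K36me2 towards the 3′ part, and plants with defects in H3K36 methyltransferases or in the PAF1 complex flower early. *FWA* is a homeobox gene that delays flowering when it is expressed outside the seed, and its promoter repeats are normally silenced by DNA methylation.

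The *fwa* plants carried the *fwa* epiallele, in which that DNA methylation has been lost, so that *FWA* was expressed and flowering was late. The ELF7-ZF plants were in the same *fwa* background and also carried a transgene that fused ELF7 to an artificial zinc finger (ZF) designed to bind the *FWA* promoter, with a FLAG tag. Leaves were taken from T2 plants of ELF7-ZF that flowered early, so the fusion and the flowering state cannot be told apart in these comparisons. The study's methods describe one vector with the *UBQ10* promoter, which puts the ZF before the effector. Another vector, with the native promoter, puts the ZF after the effector. The name ELF7-ZF has the order of the second, but which of them was used was not stated outright in the sources used here. Nothing in the labels says that the replicates came from separate plants, so the spread between them may be technical. No H3K36me2 list of a ZF fusion to a neutral protein was analysed here. The lists hold no read counts, so the depth behind each peak is unknown from the files used here.

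The ELF7-ZF lists held 29961 and 19941 nuclear peaks in replicates 1 and 2, and the *fwa* lists 25108 and 19042. They covered 23.1 and 28.2 Mb in ELF7-ZF, against 23.3 and 27.2 Mb in *fwa*. Peaks were shorter in replicate 1, with median widths of 537 bp in ELF7-ZF and 642 bp in *fwa*, than in replicate 2, with 1116 bp in ELF7-ZF and 1147 bp in *fwa*. Of the bases covered in either list, 67.6% were shared between ELF7-ZF and *fwa* in replicate 1 and 83.4% in replicate 2, more than the 58.7% shared between the 2 ELF7-ZF lists or the 62.8% shared between the 2 *fwa* lists. The data set thus separated the libraries more than the line did, which is why lines were compared within a data set. As a check of leaf tissue, 14 of 17 photosynthesis genes (82.4%) had a peak in all 4 libraries, against 57.9% of all protein-coding genes. All 9 housekeeping genes had one too, so such a peak is not particular to leaf genes. None of 13 seed storage and maturation genes had a peak in all 4, and 12 of these 13 had no peak in any library. Of 11 floral organ identity genes, 2 had a peak in all 4. The median covered share of these floral genes was 0% in both lines in replicate 1. In replicate 2 it was 23.9% in ELF7-ZF and 21.0% in *fwa*. For the photosynthesis genes the median was 73.9% in ELF7-ZF and 77.6% in *fwa* in replicate 1, and 53.2% and 60.8% in replicate 2. The check was thus less clear in replicate 2, and a difference in tissue or stage between the data sets was not tested.

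The total covered by H3K36me2 peaks was not higher or lower in the same direction in both replicates. ELF7-ZF minus *fwa* was -0.17 Mb in replicate 1 and 0.99 Mb in replicate 2, a mean of 0.41 ± 0.82 Mb (SD, n = 2), with p = 1.0 by a two-sided exact permutation test over libraries. That test did not keep the data sets paired, whereas the mean and SD are of differences within data sets. With 2 libraries against 2 the test cannot give a p below 0.333, so the results that follow are described by their size in each replicate.

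At *FWA* itself (AT4G25530, a 4105-bp gene on the plus strand, chr4:13038360-13042464 in TAIR10), peaks covered 43.9% and 42.1% of the gene in ELF7-ZF, against 57.3% and 54.9% in *fwa*. Both ELF7-ZF libraries lay below both *fwa* libraries. The mark did not reach the promoter in any library, as 0 bp of the 1 kb upstream was covered in each. The H3K36me2 domain of *fwa* began at positions 13039895 and 13040133 within the gene, whereas the main domain of ELF7-ZF began at 13041148 in replicate 1 and 13040736 in replicate 2. In replicate 1 of ELF7-ZF, separate peaks of 195 bp and 290 bp, which began at 13040108 and 13040735, lay before that domain. A stretch of 432 bp that starts 1943 bp into *FWA*, chr4:13040303-13040734, was covered in both *fwa* libraries and in neither ELF7-ZF library, and 301 bp of it were coding exon. With the gene cut into 10 equal bins numbered from its start, bin 6 was covered to 21.4% and 21.2% in ELF7-ZF, against 100% in both *fwa* libraries.

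The 3′ end of *FWA* showed the opposite. Both *fwa* lists had a gap between the domain of *FWA* and that of the convergent neighbour *MSH3* (AT4G25540), which encodes a DNA mismatch repair protein. In both ELF7-ZF lists the gap was filled over 369 bp, chr4:13042385-13042753, so that the domains joined. All 369 bp lay in annotated exons, 80 of them within *FWA*, and all lay in a ZF binding region (chr4:13042193-13042925, 6.67-fold enriched). Bin 10, at the end of *FWA*, was therefore covered to 100% in both ELF7-ZF libraries, against 46.7% and 80.5% in *fwa*. *MSH3* was covered to 87.1% and 88.7% in ELF7-ZF, against 83.1% and 85.5% in *fwa*. Upstream of *FWA*, *SLK3* (AT4G25515) had 60.4% and 81.1% in ELF7-ZF, against 93.9% in both *fwa* libraries. *SLK1* (AT4G25520) had 55.1% and 53.4% in ELF7-ZF, against 72.0% and 52.2% in *fwa*, a difference that was not repeated. Both genes encode SEUSS-like transcriptional adaptors. AT4G25550, a subunit of a cleavage and polyadenylation factor, differed little, with 36.2% and 34.1% in ELF7-ZF and 35.3% and 34.6% in *fwa*.

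**Figure D1:**
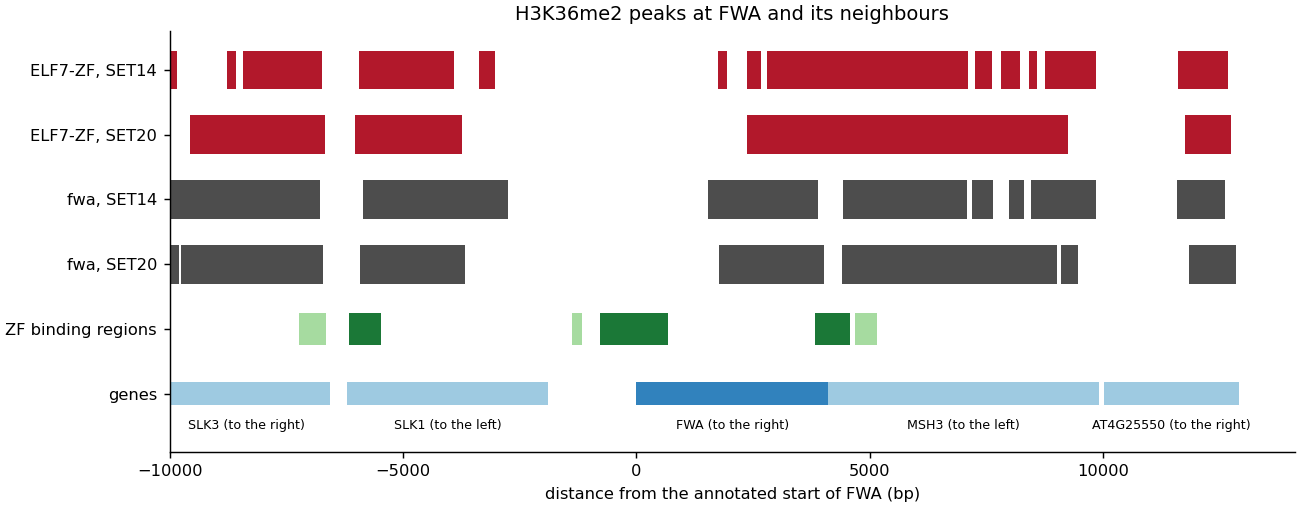
H3K36me2 peaks (bars) in the 2 ELF7-ZF libraries (red) and the 2 *fwa* libraries (grey) by distance in bp from the annotated start of *FWA*, above the ZF binding regions (dark green, highest summit at least 4-fold; light green, weaker) and the genes (blue) with their direction. In *fwa* the *FWA* domain started further 5′ and ended before *MSH3*, while in ELF7-ZF it started 3′ of that point and ran on into *MSH3*.

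ZF binding regions came from the FLAG ChIP–seq list of another fusion with the same zinc finger, TRB1-ZF, and not from ELF7-ZF. Per the study's methods, ZF binding was profiled in flower buds, whereas the H3K36me2 lists of ELF7-ZF came from leaves. Whether the same sites were bound in leaves of ELF7-ZF was not tested here. That list held 19986 regions, and the 6091 with a first summit entry of 4-fold or more were taken as ZF sites. The promoter region of *FWA* is not among them by this rule, because the first of its summits was 2.44-fold enriched, although its highest was 11.7-fold. The 6 bases that most set the 500 strongest ZF summits apart from flanking sequence were GATGTA, found on either strand in 42.8% of 100-bp windows at those summits and in 4.7% of windows 1000 bp away. The sequences below, 81 bases around the highest ZF summit, show *FWA* and the 4 new H3K36me2 regions with the strongest ZF summit inside them, on the plus strand of TAIR10. Capitals mark GATGTA or its reverse complement TACATC, which do not overlap in these windows.
*FWA* promoter, chr4:13038252-13038332: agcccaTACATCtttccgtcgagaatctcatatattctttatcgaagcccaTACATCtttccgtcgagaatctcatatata
*FWA* 3′ end, filled gap, chr4:13042524-13042604: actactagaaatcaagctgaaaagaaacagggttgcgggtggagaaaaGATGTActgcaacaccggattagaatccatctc
AT5G41835, chr5:16752340-16752420: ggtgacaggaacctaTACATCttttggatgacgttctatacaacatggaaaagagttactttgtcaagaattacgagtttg
*SWEET9*, chr2:16306755-16306835: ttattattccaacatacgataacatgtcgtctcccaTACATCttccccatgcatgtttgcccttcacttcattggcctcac
AT2G18720, chr2:8116839-8116919: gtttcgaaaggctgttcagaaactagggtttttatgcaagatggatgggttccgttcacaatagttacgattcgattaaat
AT3G28320, chr3:10582033-10582113: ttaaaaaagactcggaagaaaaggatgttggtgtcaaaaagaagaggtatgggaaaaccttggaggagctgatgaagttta

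The promoter window of *FWA* held the 6 bases 2 times. The filled gap at the 3′ end held them 1 time, as did AT5G41835 and *SWEET9*, and the windows at AT2G18720 and AT3G28320 did not. The new region at AT5G41835 had 541 and 577 bp under peaks in ELF7-ZF and none in *fwa*. That at *SWEET9*, a nectary sucrose transporter, had 158 and 637 bp in ELF7-ZF and none in *fwa*, in the 3′ part of the gene.

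With the lists as deposited, new regions outnumbered lost ones in each replicate and in both together. Of 24859 regions, 1.56% were new in both replicates (387), 0.302% lost (75), 0.463% widened (115) and 0.149% narrowed (37). Single replicates gave many more: 3903 and 1801 new, 1780 and 595 lost, 1406 and 735 widened, 1438 and 227 narrowed. Calls also contradicted each other between replicates, since 125 regions were new in one replicate and lost in the other, and 45 were widened in one and narrowed in the other. The lead of new over lost depended on the length of the lists. With the lists of a data set cut to the same number of peaks, 227 regions were new and 121 lost in both replicates, but in replicate 1 alone 2298 were new and 2682 lost. With lists cut to the same covered bases, 186 were new and 116 lost in both, but in replicate 2 alone 650 were new and 1346 lost. When the data sets were not paired, 45 regions were widened and 15 narrowed.

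New and lost regions were narrow and weak. The new ones had a median width of 466 bp and the lost ones 390 bp, against 1846 bp for kept regions, and new ones ranged from 200 to 2294 bp. The peaks in new regions had median enrichments of 2.02-fold and 1.65-fold in ELF7-ZF, below the 2.40-fold and 2.49-fold of all peaks of those lists. Peaks in lost regions had 1.97-fold and 1.65-fold in *fwa*, against 2.39-fold and 2.72-fold for all peaks of those lists. Both kinds thus lay below the typical peak of their own list. The contrast in width follows in part from the rules. A kept region joins peaks of both lines, while a new or lost region joins peaks of only its own line. A rule that asks for no peak in the other line may also favour weak peaks. How much of the low width and enrichment comes from the rules was not tested.

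Each protein-coding gene was cut into a 5′, a middle and a 3′ part of equal length, and regions were placed by their centre. The 5′ part held 35.1% of new regions, against 24.3% of all regions and 6.48% of kept ones. For lost regions the middle part led, with 48%, against 36.2% of all regions and 43.2% of kept ones. Their share in the 3′ part was 18.7%, against 33.2% of all regions and 46.9% of kept ones. The 3′ part held 70.3% of narrowed regions, and the 5′ part held 0 of 37. The genes that held lost regions were long, with a median of 6522 bp, and those that held narrowed regions had 3978.5 bp, against 2774 bp for all regions and 2368 bp for new ones. Of 36 narrowed regions within genes, 33 had more of their lost bases 3′ than 5′ of the midpoint of the gene, with 12900 bp lost 3′ and 3132 bp lost 5′ of it. This 3′ excess follows in part from where narrowed regions lay, and was not compared with a background. Of 104 widened regions within genes, 46 had more of the change 5′ and 52 more of it 3′ of the midpoint. GC content was 42.7% in new regions and 39.9% in lost ones, against 40.6% in all regions (medians).

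The largest new region by the change shared by both replicates covered 1128 and 1523 bp in ELF7-ZF, and 0 bp in *fwa*, in the middle of *TMT3* (AT3G51490, chr3:19105808-19107330), a tonoplast sugar transporter. It was followed by AT5G12300, a lipid-binding protein, with 1094 and 1275 bp, AT5G09910, a Ras-related GTP-binding protein, with 1032 and 1717 bp, and AT3G46730, a disease resistance protein of the NB-ARC class, with 1023 and 1358 bp in ELF7-ZF. AT5G49700, an AT-hook DNA-binding protein, had 844 and 946 bp, and the glutamate receptor *ATGLR1.2* (AT5G48400) had 2294 and 840 bp. All 6 were at 0 bp in both *fwa* libraries, as every new region is by its rule. Of the 6, 4 overlapped a ZF site, as did 45.3% of new and 13.9% of all regions of 800 bp and over.

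Lost regions had no ELF7-ZF peak by their rule. *FAS1* (AT1G65470, chr1:24322580-24323806), a subunit of chromatin assembly factor 1, had the largest, with 844 and 747 bp covered in *fwa*, in its 5′ part, and none in ELF7-ZF. *HUA2* (AT5G23150), a nuclear PWWP-domain protein that acts in flowering, had 625 and 902 bp in *fwa*. *UBP12* (AT5G06600), a ubiquitin-specific protease, had 614 and 767 bp, and *MEE29* (AT2G35340), a helicase, had 744 and 574 bp in *fwa*. A lost region downstream of AT3G29130 had 623 and 710 bp, and one at *PMI15* (AT5G38150), which acts in chloroplast movement, 607 and 1747 bp in *fwa*. Of these 6, 1 overlapped a ZF site, that in *FAS1*, against 6.67% of all lost regions and 11.5% of all regions.

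Among widened regions, the largest at AT2G01840 covered 4532 and 4496 bp in ELF7-ZF, against 2292 and 2679 bp in *fwa*. That over *AtSPO22* (AT5G48390), the homologue of a yeast protein of meiotic recombination, covered 2972 and 3212 bp in ELF7-ZF, against 484 and 1436 bp in *fwa*. The region at *UMAMIT40* (AT5G40240), a transporter of a family that moves amino acids, had 3581 and 4208 bp in ELF7-ZF, against 1838 and 2666 bp in *fwa*. AT3G43444 had 2859 and 3019 bp in ELF7-ZF, against 1418 and 1049 bp in *fwa*. AT3G05410, a PsbP-family protein, had 3788 and 3078 bp in ELF7-ZF, against 1457 and 1660 bp in *fwa*, and AT1G65240, an aspartyl protease, 1974 and 4245 bp in ELF7-ZF, against 649 and 2599 bp in *fwa*. That each replicate of ELF7-ZF was wider than its own *fwa* library in these regions was set by the rule. At AT1G65240 replicate 1 of ELF7-ZF was below replicate 2 of *fwa*.

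Narrowed regions were wide in *fwa*. The region at AT3G29650 covered 412 and 2048 bp in ELF7-ZF, against 3571 and 4132 bp in *fwa*. That over *EIF4G* (AT3G60240), the scaffold of the cap-binding translation initiation factor, covered 2328 and 1314 bp in ELF7-ZF, against 4810 and 3365 bp in *fwa*. AT1G76810, of the eIF-2 family, had 1990 and 1949 bp in ELF7-ZF, against 4146 and 3062 bp in *fwa*. At *EMB140* (AT4G24270), 1359 and 1804 bp were covered in ELF7-ZF, against 2648 and 3001 bp in *fwa*. AT1G73430, a sec34-like protein, had 1120 and 1388 bp in ELF7-ZF, against 2276 and 2526 bp in *fwa*, and AT3G58640, a kinase, 1863 and 1990 bp in ELF7-ZF, against 3313 and 3047 bp in *fwa*. Their direction was set by the rule.

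Counting bases rather than regions gave a different balance. Bases covered in both ELF7-ZF libraries and in neither *fwa* library summed to 457 kb in 5219 segments, with a median of 46 bp. Bases covered in both *fwa* libraries and in neither ELF7-ZF library summed to 516 kb in 4598 segments, with a median of 72 bp. Another 15852 kb were covered in all 4 libraries. Most segments of either kind were thus far shorter than a peak. The bases that were lost lay in introns in 41.7%, against 21.3% of the bases covered in all 4 and 13.3% of the gained ones. Gained bases lay in exons outside the coding sequence in 21.5% and between genes in 4.75%, against 8.29% and 0.614% of the bases covered in all 4.

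In genes of 2 kb and over, the lost bases were concentrated in the middle, while in genes of 1 to 2 kb gained bases lay through most of the gene. Each gene was cut into 10 equal bins from start to end. In 23067 protein-coding genes of at least 1 kb, the covered share of bin 2 was higher in ELF7-ZF by 5.01 percentage points in replicate 1 and 2.86 in replicate 2, and that of bin 10 by 2.95 and 6.06 percentage points. In bin 6 ELF7-ZF minus *fwa* was -4.49 and -0.79 percentage points. Downstream of the gene, the bin from 200 to 400 bp was higher by 3.89 and 3.88 percentage points. The contrast of the last 2 bins with the first 2 bins had no common sign, at -0.56 percentage points in replicate 1 and 2.02 in replicate 2 (mean 0.73 ± 1.83, SD, n = 2, exact permutation p = 1.0). It was above 0 in both replicates under 3 alternatives, at 0.095 and 2.16 with a −log10 q of at least 5, 0.26 and 2.15 with lists matched in number, and 0.081 and 0.92 in genes with no other gene within 500 bp. The contrast of both ends with the middle (the first 2 and last 2 bins minus bins 5 and 6), which was chosen after the profile had been seen and so has no test, was 7.40 and 3.98 percentage points, and 3.98 and 2.86 in genes with no other gene within 500 bp.

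**Figure D2:**
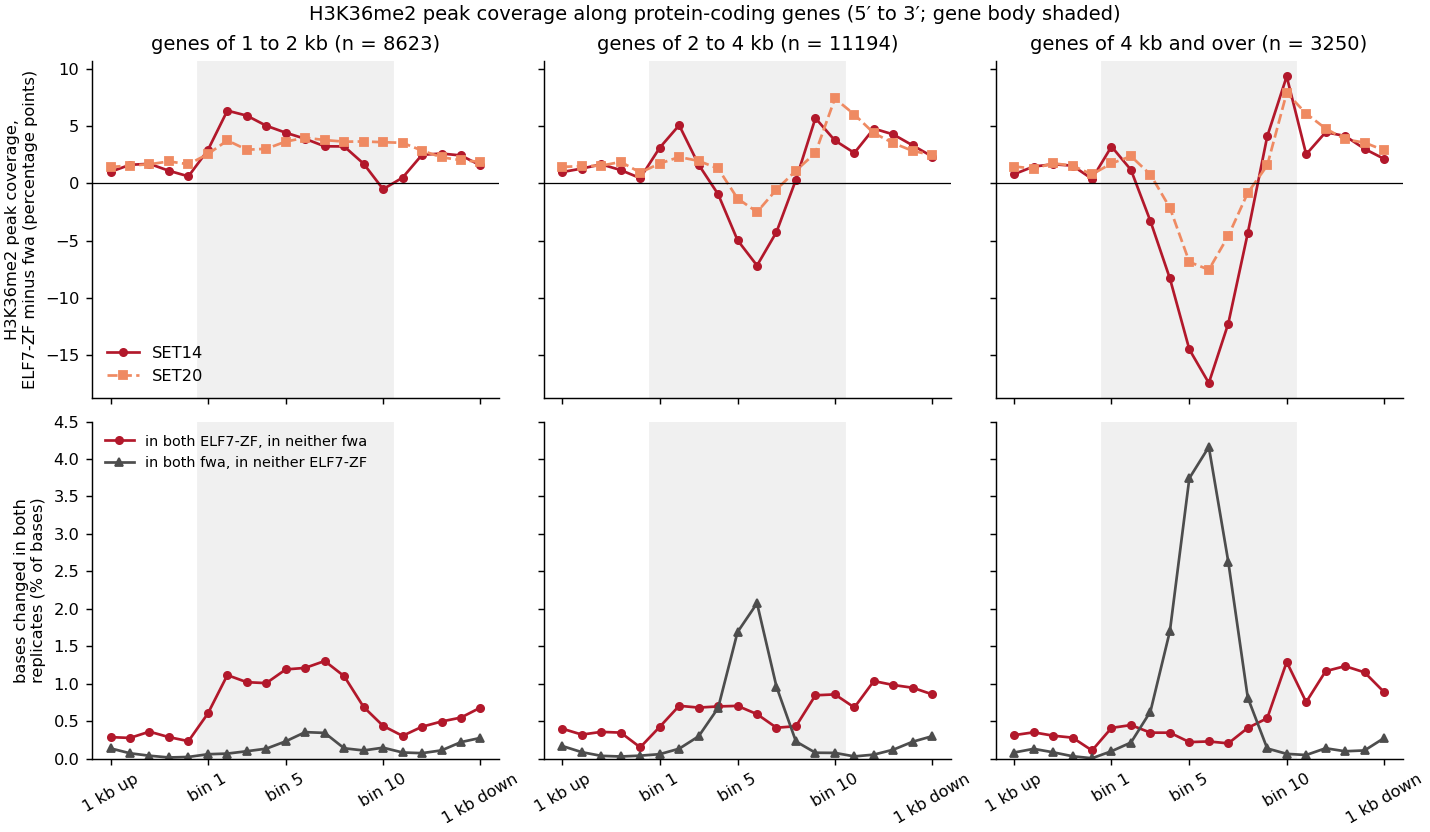
Upper panels, difference in H3K36me2 peak coverage (ELF7-ZF minus *fwa*, percentage points) in 200-bp bins of the flanks and in 10 equal bins of the gene body for genes of 3 length classes, with 1 line per data set. Lower panels, percent of bases in each bin covered in both ELF7-ZF and in neither *fwa* library (red) or in both *fwa* and in neither ELF7-ZF library (grey). In genes of 4 kb and over, lost bases peaked at 4.16% in bin 6 and gained bases at 1.29% in bin 10.

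The middle of the gene was lower in ELF7-ZF in genes of 2 kb and over. In 3250 genes of at least 4 kb, bin 6 was covered to 42.5% and 58.3% in ELF7-ZF, against 59.9% and 65.8% in *fwa*, and bin 5 to 30.5% and 41.6% in ELF7-ZF, against 44.98% and 48.5% in *fwa*. In 11194 genes of 2 to 4 kb, bin 6 was covered to 45.9% and 54.8% in ELF7-ZF, against 53.1% and 57.3% in *fwa*. Bin 10 of the genes of at least 4 kb was covered to 36.9% and 57.8% in ELF7-ZF, against 27.6% and 49.9% in *fwa*. In 8623 genes of 1 to 2 kb bin 6 was covered to 35.5% and 39.2% in ELF7-ZF, against 31.6% and 35.2% in *fwa*, so it was higher there. Bins 5 and 6 of long genes span the 5′ side of the H3K36me2 domain in *fwa*, where coverage was 16.0% and 15.6% in bin 2 and 67.9% and 78.7% in bin 9. The lost bases of long genes were centred on bin 6, where 4.16% of all bases were lost and 0.231% gained, and in bin 10 0.0655% were lost and 1.29% gained.

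Measured in bp, the gain at the 3′ end of long genes was close to the annotated end. From 200 to 400 bp inside the end, coverage was 42.1% and 67.01% in ELF7-ZF, against 28.2% and 57.7% in *fwa*, a difference of 13.9 and 9.34 percentage points. It was 0.062 and 0.61 percentage points from 1000 to 1200 bp inside the end, and -12.6 and -4.58 from 1800 to 2000 bp. On the 5′ side, the difference was 4.58 and 2.06 percentage points from 200 to 400 bp after the start and -9.93 and -3.97 from 1800 to 2000 bp after it. Coverage of long genes was thus higher in ELF7-ZF next to both ends and lower between them.

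Over whole genes the difference fell with gene length. Mean covered share was higher in ELF7-ZF by 4.10 and 3.44 percentage points in genes under 1 kb, by 3.63 and 3.46 in genes of 1 to 2 kb and by 1.03 and 1.86 in genes of 2 to 3 kb. In genes of 3 to 4 kb the replicates differed in sign, at -1.36 and 0.54 percentage points. In genes of 4 to 6 kb the difference was -3.53 and -0.38, and in the 881 genes of 6 kb and over it was -6.12 and -1.78, with 36.9% and 46.6% covered in ELF7-ZF, against 43.0% and 48.4% in *fwa*. The contrast of genes of at least 4 kb with genes of 1 to 2 kb was 10.5 and 13.8 percentage points in ELF7-ZF, against 18.4 and 18.1 in *fwa*. ELF7-ZF minus *fwa* was -7.85 and -4.22 percentage points (mean -6.04 ± 2.57, SD, n = 2), and the lines did not overlap. The exact permutation test, which ignores the pairing by data set, gave p = 0.333, the smallest it can give. Replicate 1 of ELF7-ZF, where the differences were larger, was also the library with the most and the shortest peaks. The contrast was -6.25 percentage points with lists matched in number, -6.02 with lists matched in covered bases and -5.94 with peaks less than 200 bp apart joined.

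**Figure D3:**
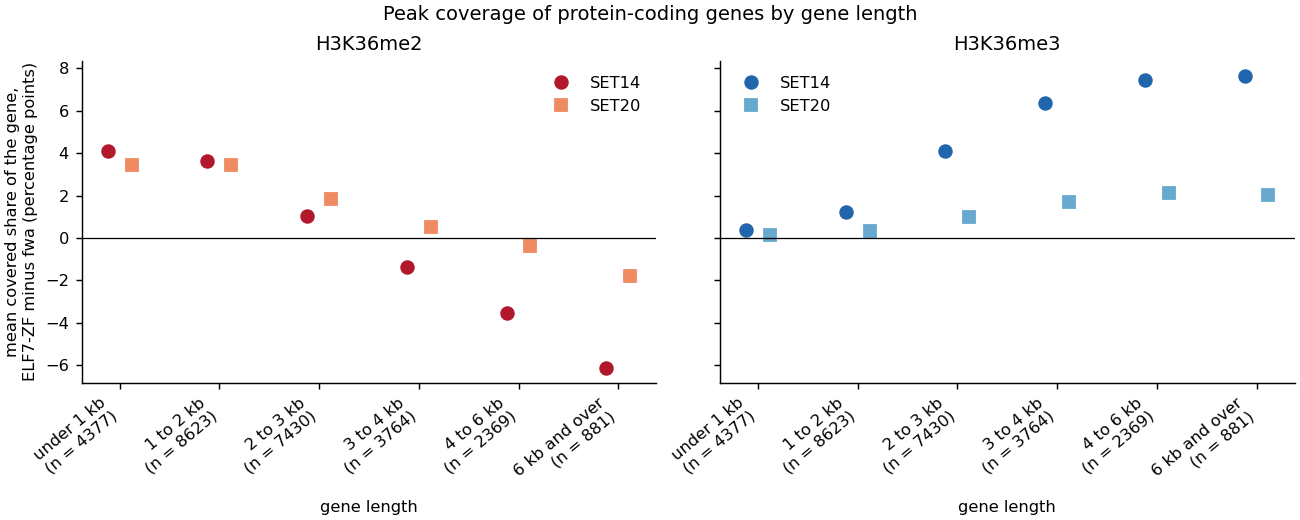
Difference in the mean share of protein-coding genes under H3K36me2 peaks (left) and under H3K36me3 peaks of the same data sets (right), ELF7-ZF minus *fwa* in percentage points, by gene length. Each point is 1 data set. H3K36me2 was above 0 in short genes and below 0 in both data sets from 4 kb on. H3K36me3 was above 0 in every length class in both data sets.

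Of 27444 protein-coding genes, 393 (1.43%) gained at least 20 percentage points of coverage in both replicates and 34 (0.124%) lost as much. Single replicates gave 2109 and 1326 gained and 1050 and 237 lost, and 61 genes went in opposite directions. Gained genes were short, with a median length of 1332 bp, against 2160.5 bp for lost genes and 2078 bp for all. By length, 2.51% of genes under 1 kb and 2.23% of those of 1 to 2 kb gained, against 0.169% of those of 4 to 6 kb and 0.114% of those of 6 kb and over. These shares follow in part from the rule, as 20 percentage points of a short gene are fewer bases. Of the 393, 127 (32.3%) had no peak in either *fwa* library, close to the 31.9% of all genes, and 3 of the 34 lost genes had none in either ELF7-ZF library. When the lowest ELF7-ZF library was set against the highest *fwa* library, with the data sets unpaired, 236 genes gained and 16 lost.

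Of the 8 genes with the largest gains, 3 had no peak in either *fwa* library. *AGL8* (AT5G60910, FRUITFULL, chr5:24502434-24506269), a MADS-box factor of the floral transition and of fruit development, was covered to 51.4% and 39.2% in ELF7-ZF and to 0% in both *fwa* libraries. *PFS2* (AT2G01500), a WUSCHEL-related homeodomain protein that acts in ovules, was covered to 66.0% and 84.0% in ELF7-ZF and to 0% in both *fwa* libraries. AT1G14500, an ankyrin repeat protein, went furthest, with 94.6% and 100% in ELF7-ZF and 0% in both *fwa* libraries.

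The other genes of this group already had some H3K36me2 in at least 1 *fwa* library. *UMAMIT37* (AT5G40230), of an amino acid transporter family, was covered to 68.8% and 72.0% in ELF7-ZF, against 0% and 12.2% in *fwa*. *AtSPO22* had 88.4% and 95.5% in ELF7-ZF, against 14.4% and 42.7% in *fwa*, and its peaks ran beyond the 5′ part that *fwa* peaks covered. AT3G05410, of the PsbP family, had 75.5% and 56.2% in ELF7-ZF, against 21.2% and 24.2% in *fwa*. AT1G65240, the aspartyl protease, had 53.2% and 96.4% in ELF7-ZF, against 0% and 37.9% in *fwa*. AT4G31230, a kinase, had 85.1% and 95.0% in ELF7-ZF, against 51.0% and 35.9% in *fwa*. The rule that chose these 8 genes set their direction in both replicates. Of the 8, 6 had a ZF site within 1 kb, as had 7135 of all 27444 genes.

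The 8 genes with the largest losses kept part of their H3K36me2 in at least 1 ELF7-ZF library. *AGL20* (AT2G45660, SOC1, chr2:18807505-18811125), a MADS-box factor that integrates flowering signals, was covered to 44.0% and 6.85% in ELF7-ZF, against 67.2% and 49.5% in *fwa*. *FPA* (AT2G43410), an RNA-binding protein of the autonomous flowering pathway, had 56.0% and 43.8% in ELF7-ZF, against 76.6% and 64.8% in *fwa*. *FAS1* had 30.2% and 49.0% in ELF7-ZF, against 65.9% and 74.0% in *fwa*. *GTE4* (AT1G06230), a bromodomain protein, had 23.6% and 38.2% in ELF7-ZF, against 63.3% and 60.1% in *fwa*. Their direction in both replicates was set by the rule that chose them.

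*EIF4G* was covered to 36.8% and 19.2% in ELF7-ZF, against 70.2% and 49.1% in *fwa*. AT5G24240, a phosphatidylinositol 4-kinase-like protein, had 0% and 10.5% in ELF7-ZF, against 40.1% and 53.8% in *fwa*. AT2G33490, a hydroxyproline-rich glycoprotein, had 26.3% and 26.7% in ELF7-ZF, against 54.5% and 51.2% in *fwa*. AT5G27240, a DNAJ-domain protein, had 51.5% and 53.3% in ELF7-ZF, against 74.6% and 73.3% in *fwa*. Losses lay in the middle of *GTE4* and AT2G33490. Bin 5 of *GTE4* was covered to 0% in both ELF7-ZF libraries and to 100% in both *fwa* libraries, and that of AT2G33490 to 0% in both ELF7-ZF libraries and to 53.7% and 54.8% in *fwa*. Bin 8 of *GTE4* was covered to 100% in all 4 libraries. Of the 8 lost genes, 6 had a ZF site within 1 kb, as had 16 of all 34 lost genes and 7135 of all 27444 genes. All 8 were longer than the median gene (2078 bp), and the part of length in this count was not tested.

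**Figure D4:**
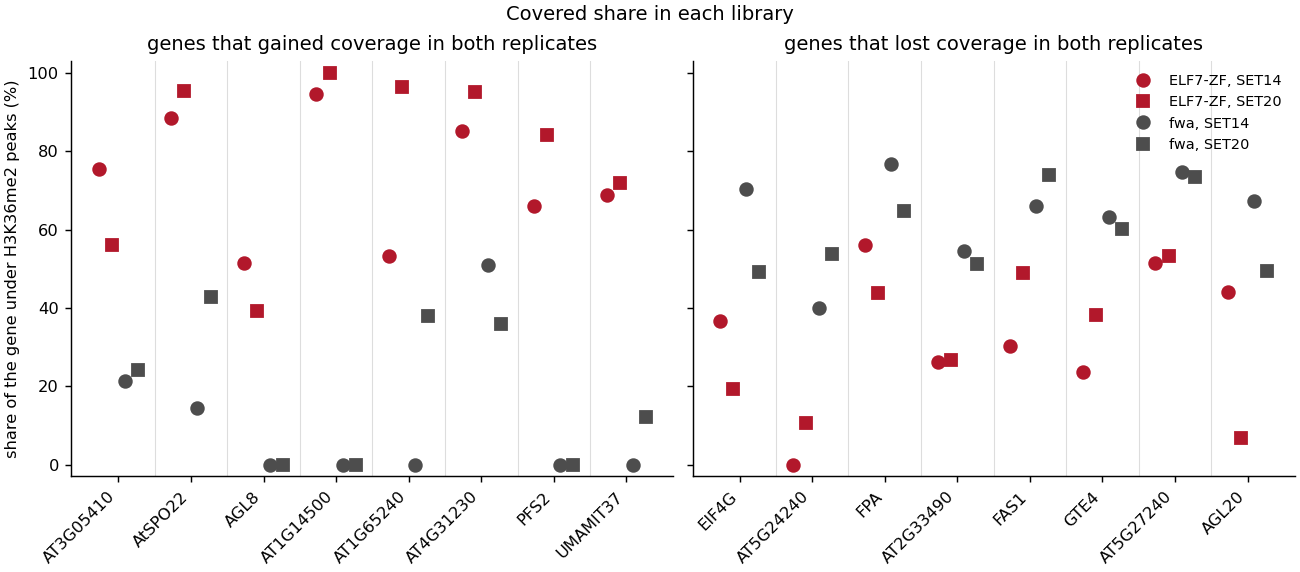
Share of the gene under H3K36me2 peaks (percent) in each ELF7-ZF (red) and *fwa* (grey) library for the 8 genes with the largest gain and the 8 with the largest loss in bases shared by both replicates. Circles are SET14 and squares SET20. The direction in each gene was set by the rule that chose it, and *AGL8*, AT1G14500 and *PFS2* were at 0 in both *fwa* libraries.

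Gene lists showed few calls. Of 5 lists with roles near the fusion (6 PAF1 complex genes, 6 H3K36 methyltransferase genes, 12 transcript elongation genes, 13 flowering time genes and 11 circadian clock genes), 1 gene passed the 20-point rule, *SOC1* (lost). None of 17 photosynthesis, 9 housekeeping, 13 seed and 11 floral organ genes passed it. Of the 12 transcript elongation genes, 6 were lower in ELF7-ZF in both replicates and 2 were higher in both, while of the 9 housekeeping genes 3 were lower and 0 higher in both, and over all genes, of which 7634 had no peak in any library, 16.0% were lower and 19.9% higher in both. The lower ones included long genes, a class in which coverage was lower as a whole. *NRPB1* (7571 bp), the largest subunit of Pol II, had 52.3% and 40.9% in ELF7-ZF, against 69.0% and 58.8% in *fwa*. *SPT5-2* (6113 bp), a Pol II elongation factor, had 13.8% and 24.0% in ELF7-ZF, against 27.2% and 34.1% in *fwa*. Of the 6 PAF1 complex genes, 3 were lower in both replicates and none was higher in both. *ELF8*, the homologue of yeast CTR9, had 14.2% and 28.4% in ELF7-ZF, against 24.4% and 39.4% in *fwa*, and *VIP4*, the homologue of yeast LEO1, 33.6% and 43.5% in ELF7-ZF, against 48.4% and 52.4% in *fwa*. *ELF7* itself had no common direction, with 94.1% and 27.7% in ELF7-ZF, against 79.2% and 42.8% in *fwa*, and reads of the transgene cannot be told apart from those of the gene in these lists.

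Among the H3K36 methyltransferase genes, *SDG8*, the main enzyme for H3K36me2 and H3K36me3, was covered to 27.5% and 33.2% in ELF7-ZF, against 40.4% and 38.9% in *fwa*. The other 5 were not lower in both replicates. In the flowering time list, 4 of 13 genes were lower in both replicates and 1 was higher in both. *FLC*, *MAF4*, *FT* and *TSF* had no H3K36me2 peak in any library, so the floral repressor *FLC* and the florigen genes gave no comparison. *CO*, which acts above *FT* in the photoperiod pathway, had 73.5% and 83.7% in ELF7-ZF and 73.4% and 76.7% in *fwa*. ELF7-ZF minus *fwa* was -31.2 percentage points in replicate 1 and 3.01 in replicate 2 for *MAF1*, and -29.7 and -0.999 for *MAF3*, so neither difference was repeated at that size. The circadian clock genes all had a peak in all 4 libraries, with 4 of 11 lower and 1 higher in both.

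Other lists of the study placed new and lost regions in different chromatin. H3K36me3 peaks of ELF7-ZF and *fwa* from the same data sets overlapped 21.2% and 19.6% of new regions with ELF7-ZF lists and 19.1% and 19.1% with *fwa* lists, against 73.6% to 74.6% of all regions. For lost regions the share was 84.0% and 77.3% with ELF7-ZF lists and 82.7% and 77.3% with *fwa* lists. Narrowed regions overlapped H3K36me3 in 97.3% and 86.5% with ELF7-ZF lists. H3K4me3, a mark of active promoters, lay at 18.6% and 18.9% of new regions in its ELF7-ZF lists and 19.4% and 20.7% in its *fwa* lists, against 41.5% to 44.8% of all regions. H3K27me3, the mark of Polycomb-silenced genes, lay at 17.3% and 16.5% of new regions in ELF7-ZF and at 22.7% and 21.4% in *fwa*, against 6.81% to 8.03% of all regions. New regions are narrower than most regions, and the part of width in these overlaps was not tested. The H3K4me3, H3K27me3 and Pol II lists came from other data sets than the H3K36me2 lists.

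Pol II peaks lay at 18.3% and 29.2% of new regions in ELF7-ZF lists and 14.5% and 27.4% in *fwa* lists, against 29.5% to 46.9% of all regions. Lost regions had Pol II peaks in 30.7% and 8.00% with ELF7-ZF lists and 9.33% and 10.7% with *fwa* lists, so the replicates did not give a common direction. FLAG-tagged ELF7 expressed from its own promoter, profiled in flower buds and not in leaves, was bound at 18.3% and 11.9% of new regions in its 2 libraries, against 53.3% and 35.2% of all regions. It was bound at 75.7% and 56.8% of narrowed regions. Of the gained genes, 22.4% and 16.5% had H3K36me3 peaks in ELF7-ZF and 15.5% and 15.01% in *fwa*, against 53.7% to 55.0% of all genes. ELF7-FLAG was bound at 27.2% and 16.3% of gained genes, against 44.7% and 32.3% of all. H3K4me3 lay at 21.6% to 24.2% of gained genes, against 57.1% to 58.9% of all. The H3K27me3 excess of new regions was not repeated at that size, with 20.6% and 15.01% of gained genes in ELF7-ZF lists. In *fwa* lists it was 25.4% and 21.6%, against 19.9% to 22.5% of all genes in either line. Pol II gave no common direction, at 37.4% and 58.5% of gained genes in ELF7-ZF lists, against 37.99% and 52.5% of all. In *fwa* lists it was 25.7% and 58.5%, against 30.1% and 54.9%.

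H3K36me3 differed from H3K36me2 in where it was higher. In genes of at least 1 kb, the share of bin 8 under H3K36me3 peaks was 35.9% and 25.8% in ELF7-ZF, against 24.0% and 22.3% in *fwa*, a difference of 11.9 and 3.49 percentage points. In the first 5 bins the H3K36me3 difference was between -0.96 and 2.09 percentage points in replicate 1 and between 0.12 and 0.83 in replicate 2. In genes of 6 kb and over, 67.01% and 60.2% of the gene was under H3K36me3 peaks in ELF7-ZF, against 59.4% and 58.2% in *fwa*. H3K36me3 peaks thus reached further 3′ in ELF7-ZF in both data sets.

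ZF sites were more frequent among gained bases than among lost ones. Bases covered in both ELF7-ZF and in neither *fwa* library lay inside a ZF site in 14.8%, against 3.58% of the lost bases, 3.10% of the bases covered in all 4 and 3.25% of the genome. New regions overlapped a ZF site in 86 of 387 (22.2%), lost regions in 5 of 75 (6.67%), widened regions in 22.6% and narrowed regions in 27.03%, against 12.6% of kept and 11.5% of all regions. Within classes of width, 12.2% of new regions under 400 bp, 23.1% of those of 400 to 800 bp and 45.3% of those of 800 bp and over held a ZF site, against 7.46%, 9.42% and 13.9% of all regions of those widths. Still, 301 of the 387 new regions held none. The bases GATGTA were found in the central 300 bp of 18.6% of new regions with a ZF site and 7.31% of those without. They were found in 9.82% of all new regions, 18.7% of lost, 10.4% of widened, 13.5% of narrowed, 13.4% of kept and 12.4% of all regions. Lost regions thus had them about as often as new regions with a ZF site.

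At the centres of the 6091 ZF sites, 23.3% and 26.1% were under an H3K36me2 peak in ELF7-ZF, against 19.5% and 21.9% in *fwa*, in windows of 100 bp. The difference of 3.73 and 4.17 percentage points was 0.54 and 2.20 at 500 bp to one side and 0.99 and 2.19 at 500 bp to the other, and -0.15 and 0.86 at 2000 bp. The centre was covered in both ELF7-ZF and in neither *fwa* library at 109 sites (1.79%), and in both *fwa* and in neither ELF7-ZF library at 32 (0.525%). In single replicates, 466 and 350 centres were covered in ELF7-ZF only and 240 and 97 in *fwa* only.

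**Figure D5:**
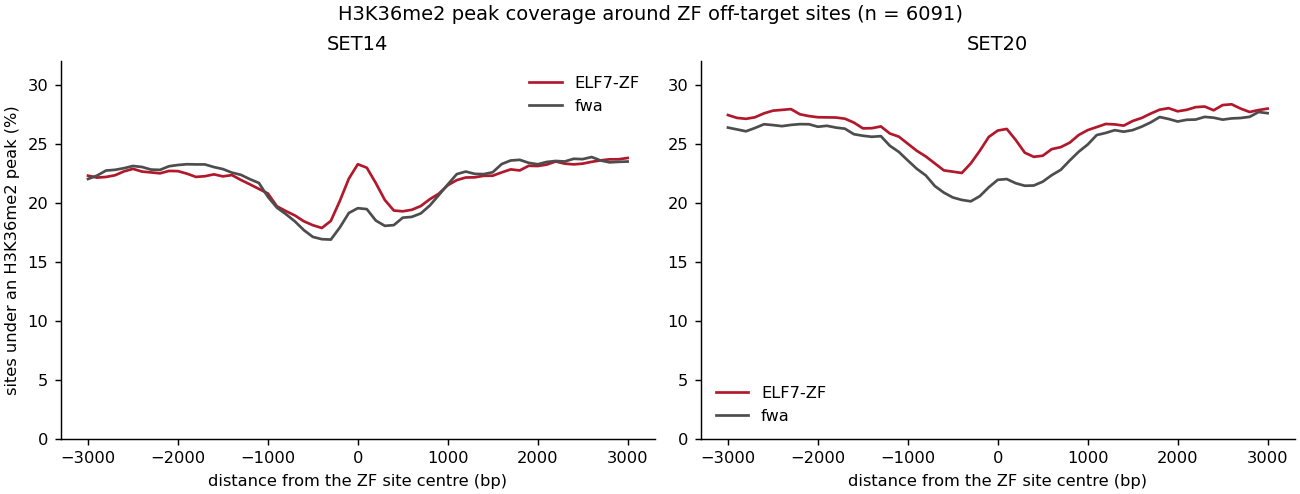
Percent of the 6091 ZF off-target sites under an H3K36me2 peak in 100-bp windows by distance from the site centre (bp), in ELF7-ZF (red) and *fwa* (grey), with 1 panel per data set. The lines differed by 3.73 (SET14) and 4.17 (SET20) percentage points at the centre and came close to each other beyond about 1000 bp, where SET20 kept a small difference.

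Genes were also split by whether a ZF site was near. Of 7135 genes with a ZF site within 1 kb, 2.24% gained and 0.224% lost, against 1.15% gained and 0.0886% lost of 20309 genes with none. Among the genes with none, the contrast of long with short genes was lower in ELF7-ZF, at -7.46 and -3.75 percentage points, and the contrast of gene ends with the middle was 6.73 and 3.54. The differences by gene length and along the gene were thus present also where no ZF site was near by the 4-fold rule. Such genes can still lie near the other ZF regions of the list, which held 19986 in all, so genes free of ZF binding were not singled out.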

How the data were processed

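Per the study's methods, the authors trimmed reads with trim_galore, aligned them to TAIR10 with Bowtie2 2.1.0 (1 mapping site, no mismatch) and called peaks for each library with MACS2 2.1.1. Duplicate reads had been dropped with SAMtools 1.9. The control of the call is not given in the sources used here. Reads that map to more than 1 place, as in repeats, could give no peak. The deposited lists give each peak's position, its fold (ratio) over the control and its −log10 q-value. These lists hold no read counts, so depth is unknown from the files used here, and reads were not analysed here.

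Lists were read as deposited, with nuclear chromosomes only, and joined into regions. Coverage of genes used the RefSeq annotation of TAIR10.1, with 27444 protein-coding genes. Replicate numbers follow the data sets that the labels name, which pair the lines: lists of a data set shared 67.6% and 83.4% of their covered bases, more than lists of a line. The region rules, the 20-point gene rule, the length contrast and the gene lists were written down as a plan, but the members and lists were chosen with earlier results of these data known. Named were *FWA* and its neighbours within 10 kb, the 6 regions of each class and the 8 genes gained and lost with the largest change in bases (the smaller of both replicates), and gene lists by count. ZF sites, from 1 TRB1-ZF library, were chosen on the first listed summit. Python 3.11.15, pandas 2.3.3, numpy 2.4.6, SciPy 1.17.1 and matplotlib 3.10.9 were used. The region and profile code was tested on simulated lists. H3K4me3, H3K27me3, Pol II and ELF7-FLAG lists served for overlaps only, H3K36me3 lists for overlaps and coverage of genes, and the other fusions and assays were not used here.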

Additional observations from a re-analysis of the deposited data

Results flagged for a closer look

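In genes of at least 4 kb, H3K36me2 and H3K36me3 differed between the lines in opposite directions in both data sets. H3K36me2 coverage was 38.2% and 47.0% in ELF7-ZF, against 42.4% and 47.8% in *fwa*, a difference of -4.23 and -0.76 percentage points. H3K36me3 coverage was 56.1% and 49.95% in ELF7-ZF, against 48.5% and 47.9% in *fwa*, a difference of 7.51 and 2.09 percentage points. In the length classes under 3 kb both marks were higher in ELF7-ZF in both data sets. The difference between the marks was not tested.

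Peaks outside the nuclear chromosomes were left out of all comparisons. In SET14 the mitochondrial genome held 99 peaks in ELF7-ZF, against 16 in *fwa*, and in SET20 it held 0 in both lines. The plastid genome held 92 peaks in ELF7-ZF, against 47 in *fwa*, in SET20, and 4 in ELF7-ZF, against 16 in *fwa*, in SET14. Organelle DNA carries no histones. The part of such signal in the nuclear lists was not tested.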

How the results depend on the processing

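The length contrast stayed below 0 in all 8 alternatives. The contrast of gene ends with the middle, chosen after the data had been seen, stayed above 0 in all 9, but was 3.42 percentage points in genes with no other gene within 500 bp, against 5.69 in all genes of at least 1 kb. With 1 replicate left out, the counts ran from 1801 to 3903 new, 595 to 1780 lost, 735 to 1406 widened and 227 to 1438 narrowed regions and from 1326 to 2109 genes gained and 237 to 1050 lost. The covered bases ran from -0.17 to 0.99 Mb, the 3′ minus 5′ contrast from -0.56 to 2.02 and the length contrast from -7.85 to -4.22 percentage points. With no replicate block, that is, with the data sets unpaired, there were 45 widened and 15 narrowed regions, 236 genes gained and 16 lost, while new (387) and lost regions (75) are the same by construction. A −log10 q of at least 5 gave 37 lost and 71 widened regions and 52 genes lost. A fold of at least 2 gave 220 new regions, 112 genes lost and a covered difference of -0.063 Mb. Lists matched in number gave 227 new and 121 lost regions and a covered difference of -0.38 Mb, and lists matched in covered bases gave 186 new and 116 lost regions and 53 genes lost. Joining gaps under 200 bp gave 36 lost regions. A looser rule for the change in width, from 100 bp, gave 439 widened and 307 narrowed regions, and a stricter one, from 2 times and 400 bp, gave 11 widened and 4 narrowed. At 10 percentage points 1147 genes gained and 415 lost, and at 40 points 96 gained and 1 lost. Genes with no ZF site within 1 kb, an alternative chosen after seeing the data, gave 233 gained and 18 lost. With ZF sites taken on the highest summit (6574 sites), also chosen after seeing the data, 25.1% of new and 12.6% of all regions held one. The causes of these moves were not tested, apart from the smaller number of genes, peaks or libraries that an alternative leaves. Only 2 libraries per line and a depth that the lists do not give limit every value.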
